A study of Mus musculus with 2 samples.

Results

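These are 810 distal open chromatin sites of the embryonic mouse face that lie in repeat-masked sequence. They were chosen from the DNase-seq peak lists of 2 biological replicates by 4 conditions: a peak of one list had to overlap a peak of the other, overlapping peaks were merged into sites, the site had to lie over 1 kb from every annotated transcription start site (TSS), and at least 80% of its bases had to be masked. They made up 0.577% of the 140271 distal sites found in both replicates (exact 95% binomial interval 0.538 to 0.619%) and 0.456% of all 177440 shared sites, and 166 of the 810 were masked over their whole length. DNase-seq maps the places where nuclear DNA can be cut by DNase I, that is, where nucleosomes are displaced. The tissue was embryonic facial prominence of the mouse strain B6NCrl at embryonic day 14.5, from embryos of both sexes pooled. Both libraries belonged to the only group of the study, with no treatment or genetic change listed. The labels give both the same donor record and separate biosamples, and list sequencing instruments for replicate 1 only. With 1 group of 2 replicates no test between conditions was possible, and sites are not replicates, so each share below is a description with an exact 95% binomial interval that covers counting error only.

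Much of a mammalian genome descends from mobile elements. In the mouse, the short interspersed elements (SINEs) B1 and B2 are abundant: B1 derives from 7SL RNA, a part of the signal recognition particle, and B2 derives from a transfer RNA gene. Many rodent B2 copies are known to carry a binding motif of CTCF, the zinc finger protein that, with cohesin, marks the ends of chromatin loops. Reads from such copies are hard to place, since the same letters occur in many places, so a repeat can be open and remain without a peak. To give a measure of this, uniqueness was taken as the percentage of a site's overlapping 31-base words that occur once in the genome. The masked bases are the lower case letters of the RefSeq mm10 sequence, which made up 36.4% of the genome. They came in short runs (median 29 bases, quartiles 23 and 55), and the tool that masked them is not given in the sources used here, so "masked" here means repeated sequence and not a named repeat class. The member set, its share of distal sites and the comparison with the genome all rest on this mask, and another mask of mm10 would give other values.

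Members were sorted into families by aligning the central 150 bp of each to all the others. The windows below are shown because most of what the members shared lay in their letters. They were read from the RefSeq mm10 sequence, 5′ to 3′ on the strand named, and capitals mark a match to the 12-base core of the CTCF motif, or in family 9 to the EBF motif. The family 1 seed is the member with most aligned partners, the windows of families 3, 6 and 8 and from Gsta4 are the members of highest rank in their families, and those of families 7 and 9 are seeds. The family 7 seed scored 11 and 7, where the medians of its family were 20 and 16.5. The window near 2010315B03Rik is a tandem array, and the last 2 are closed copies of family 1, 1 with the match and 1 without it.
Family 1 seed, chr1:156538536-156538685, plus strand: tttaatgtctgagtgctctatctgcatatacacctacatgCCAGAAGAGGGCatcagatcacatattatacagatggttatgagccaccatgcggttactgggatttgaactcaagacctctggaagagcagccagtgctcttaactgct
Family 1, in an intron of Gsta4, chr9:78194036-78194185, minus strand: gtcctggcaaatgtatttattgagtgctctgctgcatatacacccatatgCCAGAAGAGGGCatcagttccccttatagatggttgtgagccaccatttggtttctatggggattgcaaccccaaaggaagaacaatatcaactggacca
Family 8, in an intron of Cbx7, chr15:79941086-79941235, plus strand: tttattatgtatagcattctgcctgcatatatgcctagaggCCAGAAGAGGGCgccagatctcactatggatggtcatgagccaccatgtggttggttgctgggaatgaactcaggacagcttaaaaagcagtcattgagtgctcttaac
Family 9 seed, nearest to Ppp2r5a, chr1:191458426-191458575, plus strand: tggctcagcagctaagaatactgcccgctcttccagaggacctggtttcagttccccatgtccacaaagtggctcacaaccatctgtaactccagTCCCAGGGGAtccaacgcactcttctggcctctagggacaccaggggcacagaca
Family 3, in an intron of the non-coding gene D5Ertd615e, chr5:45062766-45062915, plus strand: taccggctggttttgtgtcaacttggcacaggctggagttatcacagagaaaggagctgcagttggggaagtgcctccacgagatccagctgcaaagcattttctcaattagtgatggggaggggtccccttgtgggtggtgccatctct
Family 6, in an intron of Ncam2, chr16:81379236-81379385, plus strand: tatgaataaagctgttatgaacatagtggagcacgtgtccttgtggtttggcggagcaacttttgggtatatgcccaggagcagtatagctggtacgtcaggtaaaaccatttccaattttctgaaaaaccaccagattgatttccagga
Family 7 seed, a B1 sequence near Eif2b3, chr4:117009606-117009755, plus strand: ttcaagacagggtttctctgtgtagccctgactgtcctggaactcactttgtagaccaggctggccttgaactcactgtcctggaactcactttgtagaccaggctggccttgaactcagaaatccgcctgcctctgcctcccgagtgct
Tandem array near 2010315B03Rik, chr9:124257576-124257725, plus strand: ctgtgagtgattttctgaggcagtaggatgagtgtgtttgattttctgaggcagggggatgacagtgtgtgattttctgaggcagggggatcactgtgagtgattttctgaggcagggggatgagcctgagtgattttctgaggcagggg
Closed copy of family 1 with the match, chr9:98723704-98723853, plus strand: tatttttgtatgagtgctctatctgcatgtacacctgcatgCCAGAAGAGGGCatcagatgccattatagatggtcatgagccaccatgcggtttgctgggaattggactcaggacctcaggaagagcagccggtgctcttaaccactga
Closed copy of family 1 without the match, chr15:89083310-89083459, plus strand: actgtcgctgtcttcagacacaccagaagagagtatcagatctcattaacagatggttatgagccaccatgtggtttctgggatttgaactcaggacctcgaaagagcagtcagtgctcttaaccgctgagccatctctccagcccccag

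The members were related to each other in sequence, and 1 family stood out by its size. At an identity of at least 75% over at least 100 bp, 18 families of 5 or more sites held 328 of the 810 members (40.5%, interval 37.1 to 44.0%). Any alignment to another member was found for 767 (94.7%). Members were chosen for repeated sequence, and no other set of masked windows was aligned in this way. The shares therefore have no background and do not set members apart from masked sequence at large. Family 1 held 138 sites and the next families held 29, 22, 18, 15, 13, 12, 11 and 10. Several families were pieces or relatives of one another: the seed of family 2 aligned to that of family 1 with 80.9% identity over 89 bp, and that of family 4 aligned to family 2 with 87.8% identity over 82 bp. Of the 138 sites of family 1, 70 ran in the orientation of the seed on the chromosome, and 81 lay in introns.

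Scores differed between families. The authors' score is a whole number from 1 to 150 with no stated normalization, so it is read only within each replicate's own list. Family 1 had a median score of 40 in replicate 1 (range 18 to 93) and of 31 in replicate 2 (range 11 to 80). Family 4 had the highest median in replicate 1 among the families of at least 10 sites, with 56 (range 20 to 69) in replicate 1 and 36.5 (range 13 to 63) in replicate 2. Family 7 had the lowest, with 20 (range 9 to 28) in replicate 1 and 16.5 (range 5 to 21) in replicate 2, and its ranges overlapped those of families 1 and 4. RefSeq names few mobile elements, and 1 of those it names, a B1, aligned to 11 of the 12 sites of family 7. Over all members 28 aligned to this B1, of which 17 were in no family. The other families were not matched to a named element here and are given by number.

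The letters of the CTCF motif were found in 292 of the 810 members (36.0%, interval 32.7 to 39.5%). Among the 139461 other distal sites 7.08% held a match (9869 sites), and among 10347 masked windows sampled from the distal genome that overlapped no peak or hotspot, 1.5% did (155 windows). Those closed windows were harder to place than the members: 25.7% of sampled masked windows had a uniqueness of at least 50%, against 79.8% of members. Among closed masked windows with a uniqueness of at least 50% the match was in 2.46% (65 of 2644), and among members of that uniqueness in 42.1% (272 of 646). Within the families 204 of 328 sites had the match (62.2%), and outside them 88 of 482 (18.3%). Masked windows beside the members, 1000 bp to either side and without a peak or hotspot, had it in 10 of 306 cases (3.27%). Members exceeded other distal sites by 29 percentage points, and the same difference was 17.9 points over all merged peaks of replicate 1 alone and 26.9 points over those of replicate 2 alone.

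The CTCF matches of the members were mostly spelled in 1 way. The letters CCAGAAGAGGGC made up 207 of the 296 matches in members (69.9%), as in the Gsta4, Cbx7 and family 1 seed windows printed above. In the other distal sites these letters were also the commonest, with 710 of 9886 matches (7.18%), followed by CCAGCAGAGGGC with 6.76% and CCACCAGGGGGC with 5.17%. The spelling commonest in members was also commonest in closed genome copies (no peak or hotspot) of families 1, 2, 4, 8 and 9. It made up 70.7% of open and 85.3% of sampled closed matches in family 1. The shares were 68.4% and 84.8% in family 2 and 70.8% and 88.6% in family 4. They were 70.5% and 76.4% in family 8 and 73.1% and 70.8% in family 9. At a uniqueness of at least 50%, closed copies of families 1, 2, 4 and 8 had 77.8%, 69.0%, 75.3% and 70.9%. Copies of these 4 families overlap, so their values are not separate comparisons. The matches of members lay a median of 25 bp from the centre of the site (quartiles 15 and 35), and those of the other sites 19.5 bp (quartiles 10 and 32). Within 20 bp of the centre lay 40.6% of the matches in members and 52.3% of those in other sites.

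Family 1 carried most of the matches of the families. Of its 138 sites 120 had the CTCF letters, and 24 of 29 did in family 2, 17 of 18 in family 4, 10 of 11 in family 8, 9 of 15 in family 5 and 6 of 10 in family 9. Families 6 and 7 had none, and family 3 had 1 in 22. Families 9 and 10 had another motif that was rare elsewhere, that of EBF, a family of helix-loop-helix factors: 5 of 10 sites and 2 of 9 sites, against 18 of all 810 members.

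Members with a CTCF match were of higher rank than the rest. Their median score was 42 in replicate 1 and 33.5 in replicate 2, against 36 and 24 for the 518 members with no match, and the quartiles overlapped in both replicates (33 to 53 against 24 to 49, and 25.8 to 42 against 17 to 33). Ordered by the mean of their percentiles in the 2 lists, the lowest 203 members had the match in 15.8% of cases (interval 11 to 21.5%), the next 202 in 35.6%, the next 202 in 41.1% and the highest 203 in 51.7% (interval 44.6 to 58.8%). Uniqueness moved with this order, with medians of 49.7%, 72.3%, 85% and 82.1%, and its part in the order was not tested. Among fully masked members 27.7% had the match (46 of 166), and between 37.0 and 39.1% did in the 4 bands of masking from 80 to under 100%. The higher rank was not particular to members. Other distal sites with a match had median scores of 64 in replicate 1 and 58 in replicate 2, against 60 and 37 without one.

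Matches were also more frequent near genes. Of the 181 members that lay 1 to 5 kb from a TSS 95 had the CTCF letters (52.5%, interval 44.9 to 59.9%), and the share was 44.3% at 5 to 20 kb, 18.8% at 20 to 100 kb and 7.32% (3 of 41) farther away. The other distal sites went from 8.54% to 3.51% over the same bands. Members with the match lay a median of 8013 bp from the nearest TSS and members without it 18614 bp. In family 1 alone, open copies with the match had a median distance of 8143 bp, open copies without it 11429 bp, and closed copies 11653 bp with the match and 11722 bp without it.

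**Figure D1:**
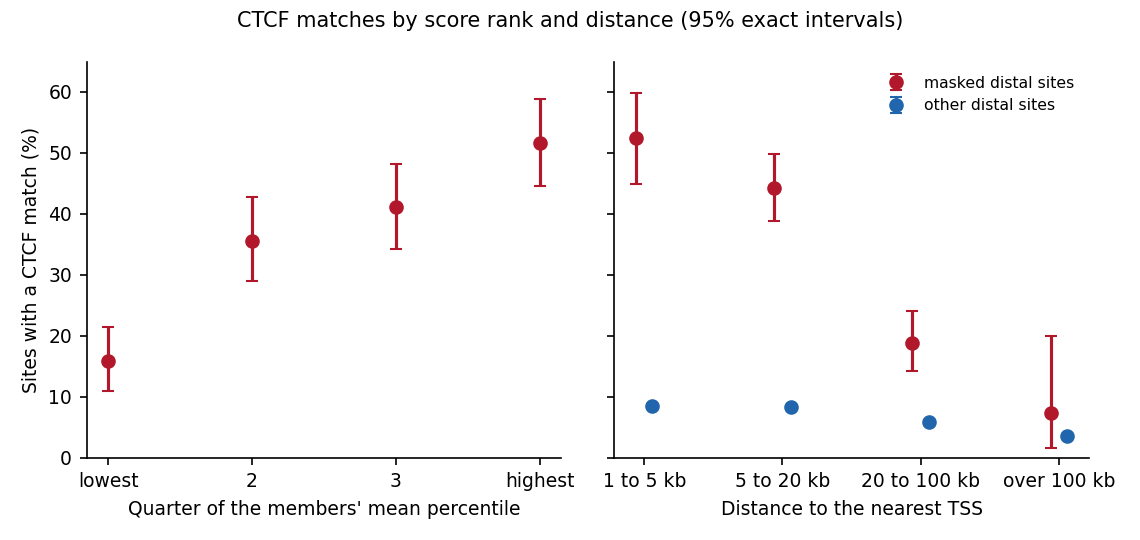
Percentage of sites with a CTCF match, with exact 95% binomial intervals: on the left the members in 4 groups of nearly equal number by their mean score percentile, on the right members (red) and other distal sites (blue) by distance to the nearest TSS. The share in members goes from 15.8 to 51.7% with rank, and from 52.5% at 1 to 5 kb to 7.32% over 100 kb.

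Open copies of the families were also set beside closed ones. For this, the seed of each of the 9 families of at least 10 sites was aligned to the whole genome at the same thresholds. A copy counted as open when at least 75 bp of it overlapped a shared site, and as closed when it met no peak and no hotspot of either replicate. That shared site could have any masked share, so open copies were not limited to members and could lie in the other distal sites. Open copies were rare in the large families. Family 1 had 84909 distal copies, of which 246 were open (0.290%, interval 0.255 to 0.328%), and family 6 had 67297, of which 22 were open (0.0327%). Family 3 had 55 open of 26357 (0.209%) and family 9 had 36 open of 5974 (0.603%). The smaller families 5, 7 and 8 had 2.48% (54 of 2174), 2.37% (15 of 633) and 3.01% (151 of 5016). Families also differed in how well reads from their copies can be placed. A uniqueness of at least 50% was reached by 18.7% of sampled closed copies in family 1 and 17.9% in family 6. It was reached by 15.5% in family 5, 70.1% in family 8 and 88.6% in family 9. The part of uniqueness in the open shares was not tested. Copies of families 1, 2, 4 and 8 overlapped, and covered 98147 separate places.

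Over all copies, open ones held the CTCF letters more often than closed ones in families 1, 2, 4, 8 and 9, and not in family 5. Because copies of families 1, 2, 4 and 8 overlap, these 4 are not separate comparisons. In family 1 the match was in 202 of 246 open copies (82.1%, interval 76.7 to 86.7%) and in 910 of 1952 sampled closed copies (46.6%, interval 44.4 to 48.9%). Open copies of family 1 had a median uniqueness of 73.4% and closed ones of 18.6%. Among copies with a uniqueness of at least 50% the shares were 85.1% (172 of 202) and 42.2% (154 of 365). In family 8, whose closed copies had a median uniqueness of 63.5%, the match was in 90.1% of 151 open and 45.8% of 2376 closed copies, and in 89.2% and 41.0% at a uniqueness of at least 50%. In family 9 it was in 25 of 36 open copies (69.4%, interval 51.9 to 83.7%) and in 17.4% of 1951 closed copies. In family 2 it was in 67.8% of open and 48.0% of closed copies, and in family 4 in 81.3% and 47.6%. Family 5 had it in 68.5% of 54 open copies (interval 54.4 to 80.5%) and in 71.4% of 2038 closed copies, or 37 open and 1456 closed copies. At a uniqueness of at least 50% the direction in family 5 was the other way. There 16 of 26 open copies (61.5%) and 146 of 316 closed copies (46.2%) had the match.

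**Figure D2:**
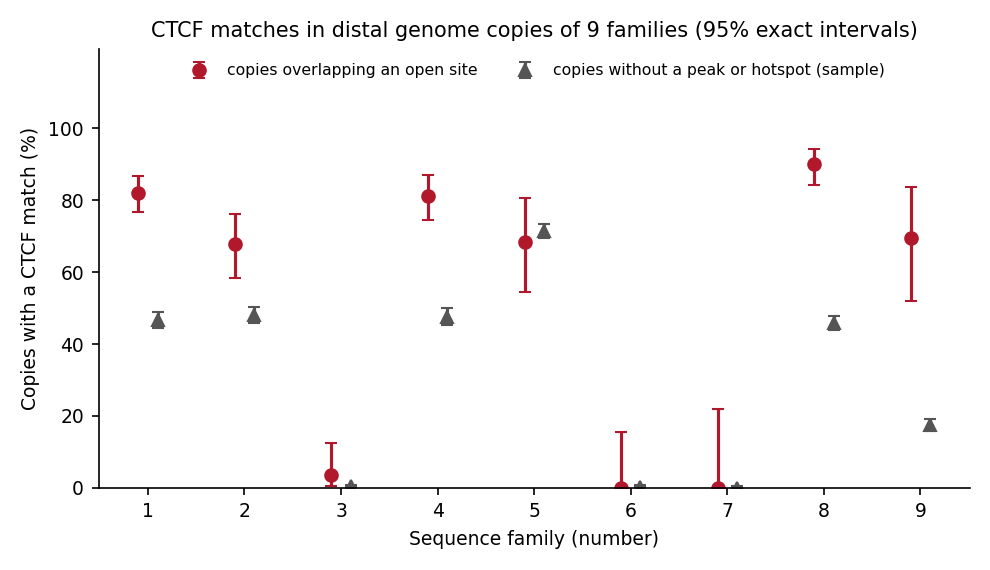
Percentage of distal genome copies with a CTCF match for the 9 families of at least 10 sites, with exact 95% binomial intervals: red circles are copies overlapping an open site and grey triangles are sampled copies that meet no peak or hotspot. The red points lie above the grey ones in families 1, 2, 4, 8 and 9, the 2 overlap in family 5 (68.5 and 71.4%), and families 3, 6 and 7 are near 0. Copies of families 1, 2, 4 and 8 overlap and are not separate comparisons.

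In families 1, 2, 4 and 8 the bases just after the match also differed between open and closed copies. Copies of these 4 families overlap, so their values are not separate comparisons. Of the matches in family 1, those followed by GC, so that the letters read GGCGC, made up 26 of 205 in open copies (12.7%, interval 8.45 to 18%) and 10 of 916 in closed copies (1.09%, interval 0.525 to 2.00%). In family 8 they made up 12.2% of 139 and 1.91% of 1098, in family 2 21.5% of 79 and 1.69% of 949, and in family 4 15.3% of 137 and 1.83% of 930. Limited to closed copies with a uniqueness of at least 50% the shares were 1.27% in family 1, 0.645% in family 2, 0 of 89 in family 4 and 2.60% in family 8. In family 9 the shares were 7.69% (interval 0.946 to 25.1%) of 26 and 4.72% of 339, which overlapped, and in family 5 there were none in 38 open and 1457 closed matches. The Cbx7 window of family 8 shows this spelling, while the Gsta4 window goes on with AT. In all members 11.8% of matches were followed by GC and in the other distal sites 19.2%.

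RUNX letters were also more frequent in members than in other distal sites. The RUNX factors, among them the bone regulator Runx2, bind TGTGGTT, and this was in 156 members (19.3%, interval 16.6 to 22.1%), in 5.41% of other distal sites and in 4.44% of closed masked windows. It was in 79 of the 138 sites of family 1, 18 of 29 in family 2, 8 of 18 in family 4 and 5 of 7 in family 13. Over all copies of family 1 it was in 52.8% of open (interval 46.4 to 59.2%) and 73.4% of sampled closed copies, and at a uniqueness of at least 50% in 50% and 47.4%. Outside the families 7.88% of members had it (38 of 482). The difference from other distal sites was 13.8 points, and 9.15 points over all merged peaks of replicate 1 alone.

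Over the 34 motifs searched on both strands, 8 had a share in members whose interval lay above the share in other distal sites and 8 had one below it. Those above were CTCF, RUNX, the E-box CAGATG that Twist dimers bind (23.0% against 18.7%), EBF (2.22% against 1.3%), the p53 family motif (1.85% against 0.462%), the YY1 motif AAGATGGC (1.98% against 0.773%), the B box GTTCGANNC of RNA polymerase III genes (0.988% against 0.198%) and the TATA box TATAAAA (3.33% against 2.00%). The last 3 were more frequent still in closed masked windows, with 3.28%, 1.81% and 4.78%. The E-box CAGATG was in 13.5% of closed masked windows and in 20.1% of members outside the families (97 of 482). In family 1 it was in 36.6% of open and 50.3% of sampled closed copies, and at a uniqueness of at least 50% in 34.7% and 43.3%. Family 6 went the other way, with 7 of 22 open copies (31.8%, interval 13.9 to 54.9%) and 9.15% of 2044 closed copies. At a uniqueness of at least 50% its shares were 4 of 17 open (23.5%) and 53 of 366 closed copies (14.5%).

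The motifs that were rarer in members than in other distal sites included several of developmental regulators. The E-box CAGCTG of myogenic and other helix-loop-helix factors was in 9.63% of members (interval 7.69 to 11.9%) and 19.6% of other distal sites. The nuclear factor I element TTGGCA was in 8.64% against 18%, the MEIS element TGACAG in 6.05% against 13.4%, the TFAP2 element GCCNNNGGC in 2.35% against 5.67%, the nuclear receptor element AGGTCA in 3.46% against 6.50%, the SP element GGGCGGG in 1.48% against 3.33%, the forkhead element TGTTTAC in 1.36% against 2.58% and the TEAD element CATTCCA in 2.96% against 4.65%. Closed masked windows had the E-box CAGCTG in 3.44%, below members, and the MEIS element in 7%. The AP-1 element TGANTCA was in 6.79% of members and 6.58% of other sites, with 2.47% of closed masked windows. Members and other distal sites had median GC contents of 48.0% and 48.7%. Over all merged peaks of replicate 1 alone the differences for CAGCTG and TTGGCA were both -5.19 points, from -9.97 and -9.35 points. A match says only that the letters are in the window.

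**Figure D3:**
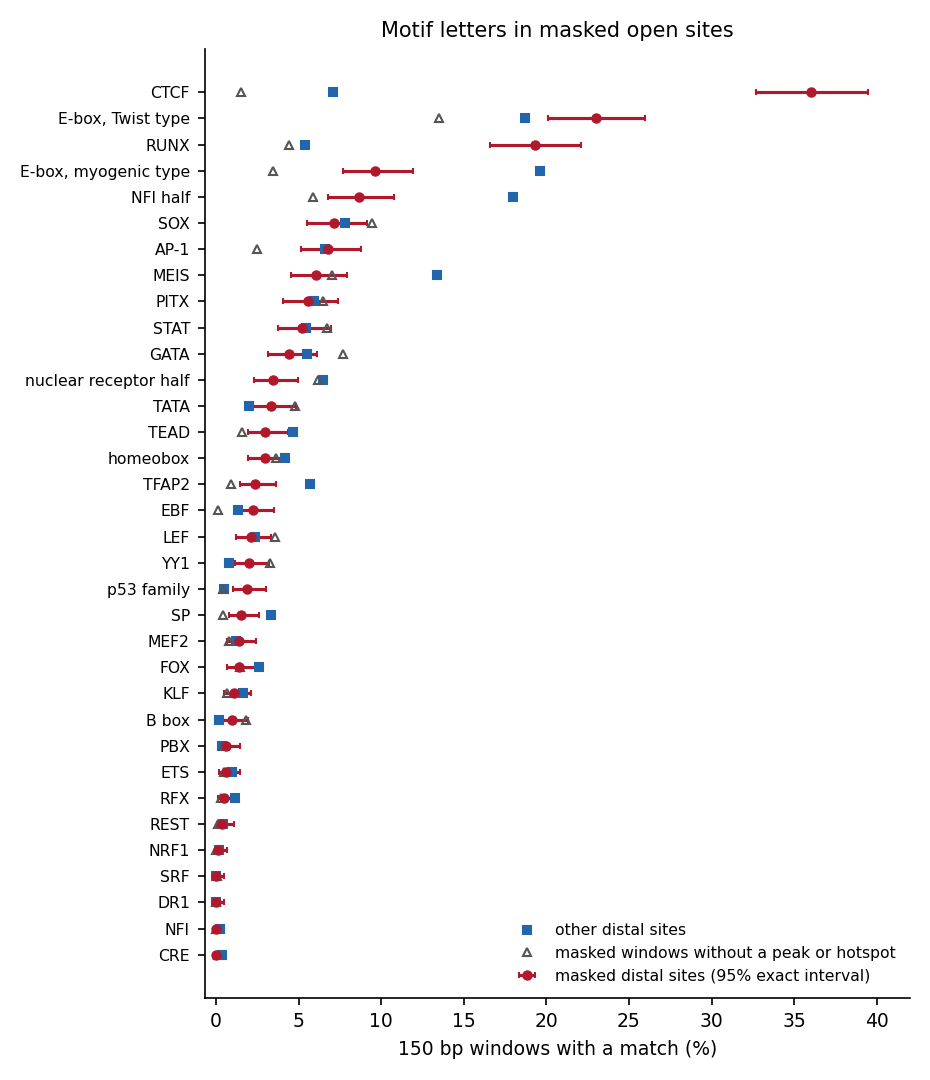
Percentage of 150 bp windows with a match to each of the 34 motifs: members with exact 95% binomial intervals (red), other distal sites (blue squares) and masked windows with no peak or hotspot (open triangles). CTCF, with 36.0% of members and 7.08% of other sites, and RUNX, with 19.3% and 5.41%, lie farthest to the right of the other sites, and the myogenic E-box, NFI and MEIS elements lie to the left.

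Masked sequence was scarce among open sites. Of all distal 150 bp windows of the genome 20.9% were at least 80% masked, against the 0.577% of distal sites, a share 36.1-fold lower. With windows and sites limited to a uniqueness of at least 50% the shares were 6.46% and 0.462%, which is 14.0-fold lower. With no partner required, the peaks of replicate 1 alone gave 1870 masked distal sites and those of replicate 2 alone 1347. Median uniqueness was 73.5% in members and 100% in other distal sites.

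Members had weaker peaks than other distal sites in both replicates. Their median score was 39 in replicate 1, with quartiles of 27.2 and 51, and 27 in replicate 2, with quartiles of 20 and 36.8. Sites with 20 to under 80% of bases masked had medians of 54 and 36, and sites with under 20% masked had 61 and 38. Expressed as a percentile of each peak list, the median of members was 27.9 in replicate 1 and 26.7 in replicate 2, against 65.2 and 52.7 for the other distal sites. The difference was -37.3 points in replicate 1 and -26.1 points in replicate 2 (mean -31.7 ± 7.97, SD, n = 2). Limited to a uniqueness of at least 50% the mean difference was -25.0 points. In the highest 10% of the lists were 4 members in replicate 1 (0.494%) and 0 of 810 in replicate 2, against 10.2% and 5.41% of other sites. Fully masked members had medians of 26 and 20.

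**Figure D4:**
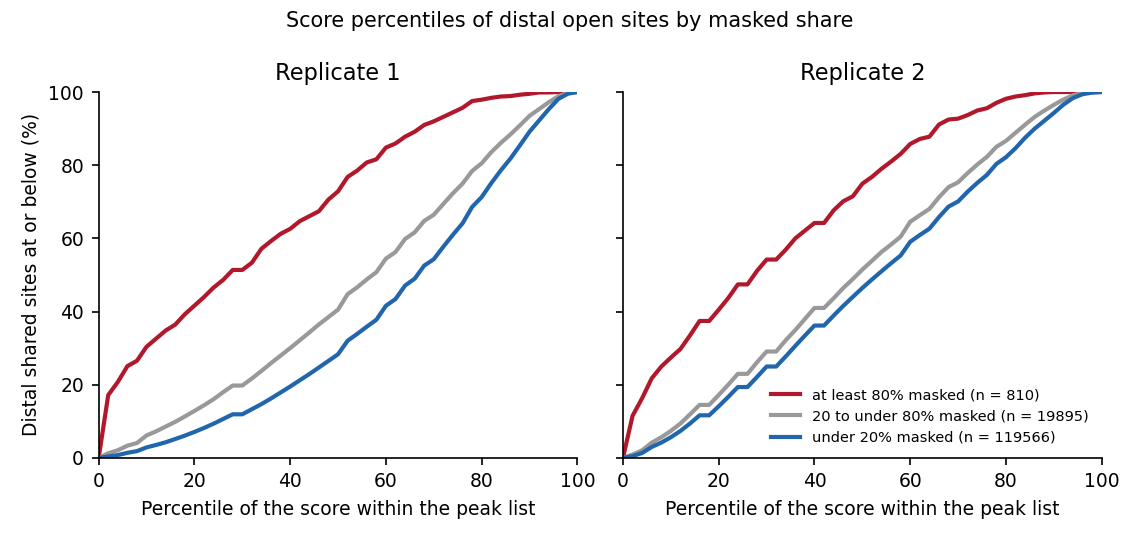
Cumulative percentage of distal shared sites (y axis) at or below each percentile of the authors' score within its own peak list (x axis), for replicate 1 (left) and replicate 2 (right), by masked share. The curve of the 810 members (red) lies to the left of the other classes in both replicates, with medians of 27.9 and 26.7.

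The threshold of 80% did not fall at a step. The 228 members with 80 to under 85% of bases masked had median scores of 44.5 in replicate 1 and 29 in replicate 2. The 225 distal sites just outside, with 75 to under 80%, had 44 and 31. The scores of members went the same way in the 2 replicates, with a Spearman rank correlation of 0.809 over 810 members, which share their libraries, and of 0.788 over other distal sites.

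Over all scores pooled, masked peaks were found again in the other replicate less often than other peaks. Sharing is part of how members were chosen, so it was looked at over all distal peaks of each list. Among all distal peaks, 55.9% of those called in replicate 1 had a partner in the other list, and 83.6% of those called in replicate 2 did. For masked peaks the shares were 49.5% (1111 of 2243, interval 47.4 to 51.6%) and 70.4% (1133 of 1610, interval 68.1 to 72.6%), and for the other distal peaks 56.0% and 83.8%. The differences were -6.43 points in replicate 1 and -13.4 points in replicate 2. Masked peaks had low scores, with medians of 33 and 24 against 48 and 34, and the comparison was repeated at like scores. Within 10 bands of equal width in percentile of the score, masked peaks were shared 16.9 points more often in replicate 1 on average, and more often in 9 of 10 bands. In replicate 2 the average was 0.396 points and the bands differed in sign, for example 53.2% against 48.4% in the lowest band and 84.1% against 89.1% in band 5. In the lowest band of replicate 1, 37.9% of 968 masked peaks and 17.5% of other peaks were shared.

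**Figure D5:**
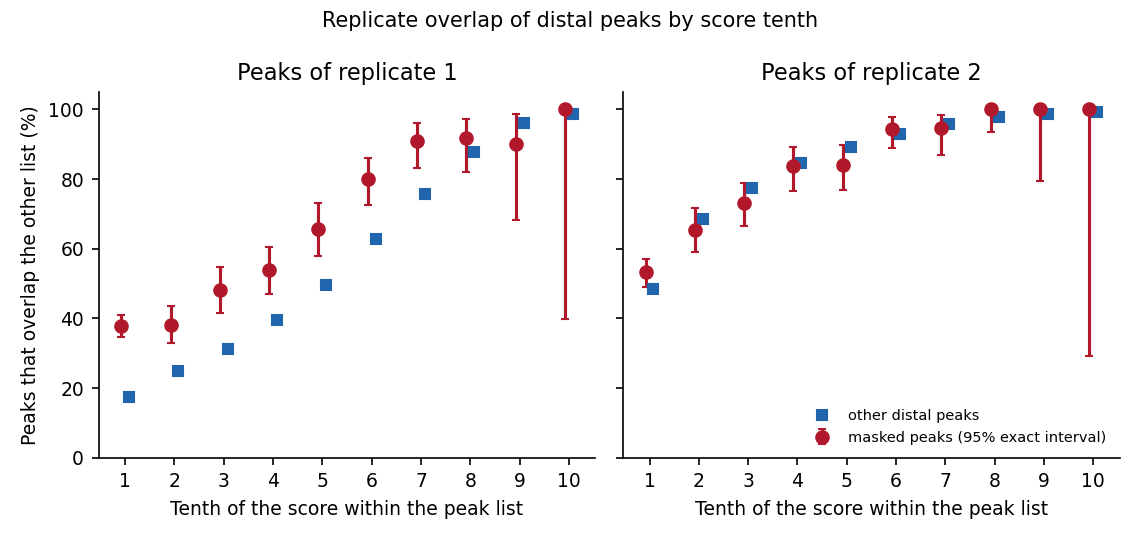
Percentage of distal peaks that overlap a peak of the other replicate (y axis) by band of 10 percentiles of the score within the list (x axis), for peaks of replicate 1 (left) and replicate 2 (right), with exact 95% binomial intervals for masked peaks (red) and other peaks as squares. In the lowest band of replicate 1 the shares are 37.9 and 17.5%, and in replicate 2 they are 53.2 and 48.4%, with masked peaks below the others in bands 2 to 5 and 7 of replicate 2.

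CTCF letters differed between shared and unshared masked peaks in 1 of the 2 lists. In replicate 1 they were in 30.2% of 1111 shared masked peaks (interval 27.5 to 32.9%) and in 11.7% of 1132 unshared ones (interval 9.85 to 13.7%). In replicate 2, the shorter list, they were in 31.9% of 1133 shared and 30.2% of 477 unshared masked peaks, whose intervals overlapped. Other distal peaks had 6.81% and 1.13% in replicate 1 and 7.02% and 4.19% in replicate 2.

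A second call of the same libraries, the hotspots, covered nearly the same places. A hotspot found in both replicates overlapped 808 of the 810 members (99.8%), and 788 of them by at least 75 bp. This overlap was not counted for the other distal sites, so it has no background share. Both calls also come from the same reads, so it is no separate evidence for the members. The hotspot value, a −log10 q-value with a ceiling of 100, was at the ceiling in 33.2% of members in replicate 1 and 25.8% in replicate 2, against 50.6% and 31.6% of other distal sites.

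By their midpoint 387 members lay in introns (47.8%, interval 44.3 to 51.3%), 417 between genes (51.5%) and 6 in exons of the GENCODE M21 basic annotation. Sampled masked windows of the distal genome lay in introns in 26.6% of cases, or in 34.7% at a uniqueness of at least 50%, and the other distal sites in 50.5%. The median distance of members from a TSS was 12817 bp, and that of other distal sites 18096 bp. In all, 783 protein-coding genes were the nearest gene of at least 1 member, 760 of them of 1 member only. On the same chromosome 5 pairs of neighbouring members lay within 1000 bp of each other. Neither the genes nor the pairs were counted for a like number of other distal sites, so these counts have no background.

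The member of highest mean percentile was a tandem array on chromosome 9, 54971 bp from the TSS of 2010315B03Rik. Its scores were 114 in replicate 1 and 74 in replicate 2. Its window, printed above, repeats a unit of 31 bp with 87.4% of bases equal from one unit to the next. In all, 15 members were such longer arrays, with units of 9 to 70 bp, and 2 more of them lay within 1 kb on the same chromosome 9 array with scores of 50 and 37, and of 60 and 30. Longer arrays were looked for in members only, so their count has no background share.

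The next in rank were single sites near genes of many kinds. A site 9073 bp upstream of Uso1, which encodes a vesicle tethering factor of the Golgi, scored 93 and 70 (chr5:92128676-92128865, intergenic, 81.6% masked). A site in an intron of Slc22a23, nearest to the TSS of the proteasome assembly gene Psmg4, scored 85 and 72 (chr13:34240116-34240285). Both had no CTCF match and a uniqueness of 100% and 89.3%. A site in an intron of Smo, the signal transducer of the Hedgehog pathway, 13122 bp from its TSS, scored 90 and 64 (chr6:29748816-29748985), was fully masked, and had 49.3% of its window in short tandem runs. A second member in an intron of Smo, at chr6:29748356-29748505, scored 71 and 51.

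The other high-ranked members included 6 with CTCF letters. The family 1 site in an intron of Gsta4, a glutathione transferase gene, scored 81 and 71, and 1 in an intron of Slc28a1, nearest to the TSS of the cyclic AMP phosphodiesterase gene Pde8a, scored 74 and 80. A family 1 site in an intron of Kpna7, an importin gene, scored 93 and 56, and a family 2 site in an intron of 1700003E16Rik scored 80 and 60. Outside the families were a site in an intron of Arhgef10l (80 and 64) and a site 12549 bp from the TSS of Cwc15 (71 and 71). The remaining 2 of the highest 12 had no match. Of these, 1 was a family 14 site in an intron of Mdga2 (86 and 63). The other lay 52854 bp from the TSS of the catenin gene Ctnna1 (91 and 60).

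A few members stood high in 1 replicate and low in the other. They are named by the gene with the nearest protein-coding TSS. The member 58049 bp from the chemokine gene Xcl1 scored 63 in replicate 1 and 23 in replicate 2, percentiles of 68.9 and 15.9. That near Hist1h4d scored 58 and 22. The others with the largest difference in this direction were those of Frk (67 and 27), Cdan1 (49 and 15) and Sik3 (72 and 29). The Frk member lay 573856 bp from its TSS, that of Cdan1 in an intron of Stard9 and that of Sik3 in an intron of Sik3. In the opposite direction the member 22984 bp from Rax scored 29 in replicate 1 and 43 in replicate 2, percentiles of 8.14 and 61.2. That 53245 bp from Klhl15 scored 32 and 43. The others were those of 4930568D16Rik (32 and 41), Prdm15 (33 and 41) and Yeats2 (34 and 42). The Prdm15 member lay in an intron of C2cd2, and that of Yeats2 in an intron of Yeats2.

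Members were also counted beside known genes of the face and of its cell types. Among 50 transcription factor genes of facial mesenchyme, 2 were the nearest gene of a member, and these genes were nearest to 0.247% of members (interval 0.0299 to 0.889%) and 0.866% of other distal sites. Zeb2, a zinc finger repressor gene, had a member of scores 67 and 46 that lay 1561101 bp from its TSS. Of 38 signalling genes 3 were nearest to members, Smo to 2, and Fgf10 (29 and 18) and Spry1 (26 and 21) to 1 each. The list was nearest to 0.494% of members and 0.737% of other distal sites. The Fgf10 member lay 202657 bp from its TSS, and the Spry1 member 103822 bp from its TSS, in an intron of Spata5. Of 20 skeletal muscle genes Pax7 (45 and 38, 45048 bp away) and Rapsn (34 and 27, 2315 bp away) had 1 each (0.247% of members and 0.199% of other sites). Of 25 genes of neurons and glia Stmn2 had 1 (27 and 22), 385455 bp from its TSS (0.123% and 0.305%). None of 26 epithelial genes and none of 25 cartilage and bone genes was nearest to a member. For 0 of 810 the interval reaches 0.454%, and 0.215% and 0.520% of other distal sites lay nearest to these 2 lists. The interval of the members held the share of the other sites in every list but that of cartilage and bone.

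The genes with most members were Hprt, the purine salvage gene of the X chromosome, with 4, and 2010315B03Rik and Gm15319 with 3 each. Other distal sites nearest to these genes numbered 5, 3 and 2. Over the whole genome there were 5.77 members per 1000 distal sites. The 4 near Hprt scored 65 and 46, 56 and 46, 42 and 23, and 21 and 27 in replicates 1 and 2, and the last of them was a family 1 site with CTCF letters. A further 20 genes had 2 members each, among them Cartpt, Ctso, Faxc, Gm10800, Gm21887, Gpc5 and Hnrnph3. Beside these lay 27, 22, 21, 10, 23, 54 and 0 other distal sites, in that order.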

How the data were processed

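DNase-seq peak and hotspot lists of 2 replicates were used as deposited by the authors, in mm10. Per the file headers and labels, each replicate was called on its own alignments after filtering. The sources used here name no aligner or caller and give no read depth. The authors' deposited peak lists give a score from 1 to 150 and the deposited hotspot lists a −log10 q-value with a ceiling of 100. After removal of repeated coordinates and other sequences, 304233 and 217980 peaks and 277933 and 198482 hotspots on chromosomes 1 to 19, X and Y were used. Sites were merged peaks overlapping by at least 1 bp, over 1000 bp from every TSS of GENCODE M21 basic, with at least 80% lower case bases in RefSeq GRCm38.p6. Percentiles are ranks of the score within its list; a site takes its highest peak.

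Families came from blastn (BLAST+ 2.17.0, word 11, E-value 1e-5), grown from the member with most partners. Motifs were searched in the central 150 bp on both strands; those of 10 or more letters are given by name, and matches of different motifs may overlap. Closed masked windows are every 1000th distal genome window (50 bp step); closed copies are a sample of about 2000 per family. Short tandem runs have units of up to 6 bp over at least 12 bp. Python 3.11.15, NumPy 2.4.6, pandas 2.3.3, SciPy 1.17.1 and numba 0.67.0 were used, and the scripts were tested on simulated sequences and intervals.

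No test compares conditions. Members, motifs and gene lists were chosen with earlier results of these data known. Named genes are the nearest protein-coding genes of the 12 members of highest mean percentile, the 5 with the largest percentile difference in each direction, the seed and highest-ranked member of the 8 largest families, the 10 genes with most members (ties in alphabetical order) and 3 per gene list. The alternatives tried are in the closing section.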

Additional observations from a re-analysis of the deposited data

How the results depend on the processing

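The count of members, the ratio to the genome, the score difference and the family share all depended on where the limits were set. With at least 50% of bases masked there were 3447 sites, a share 13.0-fold below the genome's, and a median percentile difference of -18.9 points; with 100% masked there were 166 sites, 120-fold and -52.3 points; with stronger peaks only, 138 sites, 103-fold and -11.2 points. Leaving out a replicate, so that a peak needs no partner, gave 1347 to 1870 sites, 26 to 28-fold, percentile differences of -28.1 to -31.2 points, 45.4 to 52.6% of sites in families and a CTCF share 17.9 points (without replicate 2) to 26.9 points (without replicate 1) above the other sites, from 29 points. Families held 13.1% of members at an identity of at least 85%, 62.0% with alignments of at least 60 bp and 33.1% as families of at least 10 sites. Limited to a uniqueness of at least 50%, an alternative chosen after seeing the data, as were the family and CTCF values without a replicate, the ratio was 14.0-fold and the CTCF difference 35.0 points. Overlap with a shared hotspot by at least 75 bp held for 97.3%. The lower sharing of masked peaks, -9.91 points on average, reversed to 8.65 points within bands of 10 percentiles of the score; the cause was not tested. The remaining 16 values kept their direction and moved by less than the replicate spread or counting error, or, for counts, by less than 1.5 times. The RUNX, CAGCTG and TTGGCA differences kept their direction in all 15 values, 4 of which moved further. No paired analysis was possible because the study has 1 group. Read depth is unknown and limits how many weak masked sites could be called.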

Other observations

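The X chromosome held 55 members (6.79%, exact 95% interval 5.16 to 8.75%) and 2.00% of the other distal sites. Of sampled masked windows of the distal genome 9.17% lay on X. Members on X had lower median scores (24 and 18 in replicates 1 and 2) than autosomal members (40 and 28), with a median uniqueness of 61.9% against 75%, and 14 of the 55 had CTCF letters (25.5%, interval 14.7 to 39.0%) against 37.0% of 751 autosomal members. The Y chromosome held 4 members and 15 other distal sites.

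Short tandem repeats were a smaller share of members than of masked sequence at large. At least 20% of the window lay in such runs in 39 members (4.81%), in 9.00% of closed masked windows and in 0.720% of other distal sites. The commonest unit was AC, with 11 members, then AAAT with 6 and AG with 5.

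Among the 9 families, AP-1 letters were in 4 of 55 open copies of family 3 (7.27%, interval 2.02 to 17.6%) and in 13 of 2006 closed copies (0.648%). EBF letters were in 7 of 36 open copies of family 9 (19.4%, interval 8.19 to 36.0%) and in 5.28% of 1951 closed copies. E-box CAGCTG letters were in 69.1% of open and 35.1% of closed copies of family 3 (62.8% and 31.5% at a uniqueness of at least 50%), and SOX letters ACAATG in 49.1% and 23.6% (48.8% and 43.0% at that uniqueness). These 4 were picked, after their values were seen, from 34 motifs in each of 9 families.

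Among functional elements that RefSeq lists, 1 member overlapped an enhancer (0.123%, interval 0.00313 to 0.686%), as did 0.619% of other distal sites, and 1 overlapped a transfer RNA gene (0.123%), as did 0.122% of other distal sites.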
